A study of Mus musculus with 59 samples.

Results

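The mRNA-seq libraries of IgMb immature B cells that carry either the P4V or the Δ890 form of the Igh locus comprise 5 of the 59 samples of the series. They were chosen by their labels, with 3 P4V libraries and 2 Δ890 libraries, and each holds a TPM value (a transcript level scaled by gene length and library size, in which all genes of a library have the same fixed sum) for 24732 rows, of which 24728 had a value in every library. The immunoglobulin heavy-chain variable genes were taken as the 113 rows whose name begins with Ighv, and the share of a VH gene is its percentage of the summed TPM of these 113 rows.

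The Δ890 allele lacks a large interval of the Igh locus that holds all PAIR elements and the VH genes between VH1-47 and VH1-80, and a promoterless Bsd gene stayed behind at the deletion point. In the P4V allele, the PAIR4 element and the V8.7E element with its VH8-7 gene were placed back at that point by Cre recombination. The PAIR4 part of this insert also carries a cDNA of its own spliced transcript and several added polyadenylation sites, and the blasticidin resistance cassette used for selection was removed after germline transmission. Both groups thus share the deletion, and differ in the insert and in the selection sequences left at this point, which cannot be told apart here. The labels call the Δ890 libraries Igh(_delta_890/+) and the P4V libraries Igh(P4V/P4V), whereas the study describes the sorted cells of both groups as carrying a mutant C57BL/6 allele over a wild-type 129 allele, and in another place names the P4V cells as homozygous. If the labels hold, the number of mutant alleles differs between the groups as well, and it cannot be told apart from the insert here. Bone marrow cells were sorted by surface markers that included B220+ IgM+ IgD-, and the IgMb allotype selects cells whose surface IgM comes from the mutant C57BL/6 allele. The ages of the mice are not given for these libraries. Nothing in the labels says that each library came from a separate mouse, so that the p-values measure the spread between libraries.

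A heavy chain is made by joining 1 of many VH genes to a DJH segment in pro-B cells, and immature B cells are the first stage that displays the complete IgM on the surface. The VH genes are spread over a large part of mouse chromosome 12, with the distal genes, mostly of the VH1 (J558) family, farthest from the JH segments. PAIR elements are repeated regulatory sequences between distal VH genes that bind Pax5, E2A and CTCF. In immature B cells, most VH mRNA comes from the rearranged gene of each cell, so that the mRNA share of a VH gene reads both how many cells use it and how much mRNA each of them makes, and these cannot be told apart here.

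The 6 distal VH genes used here are those that the study groups as the first 6 upstream of the deletion point, from VH1-80 to VH1-85. They lie on the minus strand at chr12:117150555-117238672 of mm9 (GENCODE vM1, names matched through RefSeq synonyms, which placed all 113 Ighv rows). Each is followed directly by a recombination signal sequence, the site at which the RAG recombinase cuts. These 6 signals are shown because they are the part of each gene that takes part in the joining. Capitals mark the heptamer and the nonamer, taken as the best match to CACAGTG and ACAAAAACC with a spacer of 22 to 24 bases.

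VH1-85: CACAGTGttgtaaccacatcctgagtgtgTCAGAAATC
VH1-84: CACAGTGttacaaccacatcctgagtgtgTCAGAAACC
VH1-83: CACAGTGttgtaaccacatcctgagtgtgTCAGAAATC
VH1-82: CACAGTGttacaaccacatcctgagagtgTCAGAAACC
VH1-81: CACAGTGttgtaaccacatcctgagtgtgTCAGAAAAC
VH1-80: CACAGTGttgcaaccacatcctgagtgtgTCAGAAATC

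All 6 had the heptamer CACAGTG, which 69.0% of the 113 genes held. Their nonamers differed from ACAAAAACC at 2 or 3 positions. A signal was found within this window for 100 of the 113 genes. VH1-85 and VH1-83 had identical signals.

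The distal genes are close relatives, and the authors counted only uniquely placed reads of 50 bases. Over the 294 bases at the 3′ end of the V exon, VH1-82 and VH1-80 differed at 11 bases, and VH1-82 and VH1-81 at 34. The 3 stretches are shown because these genes carry most of the distal mRNA. Capitals mark the bases that differ from VH1-82, and in VH1-82 itself those that differ from VH1-80.

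VH1-82: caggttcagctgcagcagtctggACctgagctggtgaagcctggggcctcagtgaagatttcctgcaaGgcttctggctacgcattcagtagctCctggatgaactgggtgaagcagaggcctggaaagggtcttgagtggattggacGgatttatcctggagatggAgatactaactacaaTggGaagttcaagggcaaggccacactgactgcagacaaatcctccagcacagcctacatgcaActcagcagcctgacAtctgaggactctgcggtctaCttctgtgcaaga
VH1-80: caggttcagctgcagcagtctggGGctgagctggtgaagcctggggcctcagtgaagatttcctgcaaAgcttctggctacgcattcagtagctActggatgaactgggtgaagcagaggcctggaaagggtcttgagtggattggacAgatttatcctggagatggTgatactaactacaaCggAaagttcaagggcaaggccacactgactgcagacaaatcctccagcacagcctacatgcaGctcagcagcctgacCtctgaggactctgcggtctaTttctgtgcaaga
VH1-81: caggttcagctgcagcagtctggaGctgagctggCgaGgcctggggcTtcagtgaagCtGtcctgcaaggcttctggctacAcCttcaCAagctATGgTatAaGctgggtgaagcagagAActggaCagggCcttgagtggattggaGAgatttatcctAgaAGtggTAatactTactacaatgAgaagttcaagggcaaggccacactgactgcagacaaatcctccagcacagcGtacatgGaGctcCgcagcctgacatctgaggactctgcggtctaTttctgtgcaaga

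Within the locus, 87.5% of the 50-base windows of the VH1-81 exons occurred only once, and for VH1-82, VH1-80, VH1-85 and VH1-83 the values were 84.1%, 79.3%, 61.7% and 60.3%. It was lowest for VH1-84, with 31.2%. Reads from such shared windows could not be assigned, so that the level of VH1-84 in particular rests on a small part of its exons.

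The insert of the P4V allele is represented by the Pax5 site of PAIR4, as given in the oligonucleotide list of the study. Capitals mark the 9 of 35 bases that were exchanged in the mutant version of this oligonucleotide.

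PAIR4 Pax5 site: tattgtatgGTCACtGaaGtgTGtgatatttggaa

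This sequence had 4 exact copies on chromosome 12 of mm9, all between VH1-47 and VH1-80 and therefore within the interval missing from the Δ890 allele. The first copy was at chr12:116410018-116410052 and the last at chr12:117009446-117009480.

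No row of the TPM tables carried the name of VH8-7, the VH gene of the insert, or of VH1-79, and their mRNA was not analysed here. A further 12 VH rows have names of another form, and they were not used as single VH genes here. They are outside the 113 rows, and their sum equalled 0.484% to 0.619% of the Ighv TPM.

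The question of the first comparison was which VH genes the cells express from the P4V allele and from the Δ890 allele. The distal VH genes took a larger part of the Ighv mRNA in every P4V library than in either Δ890 library. Together the 6 genes made up 4.39% and 4.34% of the Ighv TPM in the 2 Δ890 libraries, and 16.2%, 18.1% and 14.2% in the 3 P4V libraries. The groups did not overlap, and the means were 4.37% ± 0.0344 (SD, n = 2) and 16.2% ± 1.92 (SD, n = 3), a difference of 11.8 percentage points or 3.7-fold. By the exact two-sided permutation test over libraries, p was 0.1, which is the smallest value that 2 against 3 libraries allow.

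The summed TPM of the 6 genes was 339 and 314 in the Δ890 libraries, against 1290, 1613 and 1001 in the P4V libraries. Set against the TPM of Ighm, the µ constant region that is spliced to the VH exon in these cells, the distal sum was 2.0% and 1.97% in Δ890 and 6.61%, 9.08% and 6.53% in P4V. The order of the groups was therefore the same with a denominator that holds no VH gene.

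Of the single genes, VH1-82 alone passed the test across all genes. Its share was 1.16% and 1.13% in the Δ890 libraries and 4.18%, 5.08% and 4.52% in the P4V libraries. On the log2(TPM + 1) scale, it was higher in P4V by 2.07 ± 0.15 (SE), with an adjusted p of 0.0482 (limma, Benjamini-Hochberg over 11681 genes). Of all genes tested, those whose mean reached 1 TPM, 1 was called, which is 0.00856%. The unadjusted p was below 0.05 for 5 of the 6 distal genes, all higher, against 225 higher genes (1.93%) and 297 lower genes (2.54%) of all tested, together 4.47%. The TPM of the same 5 genes did not overlap and was higher in P4V, against 6.94% of all genes tested that were higher without overlap and 16.2% that were lower. The call for VH1-82 lies close to the threshold of 0.05 and was lost in 7 of 9 other settings of the test. It was also lost without Δ890 replicate 1, Δ890 replicate 2 or P4V replicate 1, with adjusted p-values of 0.211, 0.210 and 0.079 (limma). Without a Δ890 library that arm holds 1 library, which is then assumed to vary like the P4V libraries. Over all 14 alternatives the log2 fold change lay between 1.91 and 2.17 and the adjusted p between 0.00202 and 0.211 (limma).

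VH1-81 had the largest share of the distal genes in every library. Its share was 1.47% and 1.5% in Δ890 and 4.93%, 7.53% and 5.34% in P4V. The log2 fold change was 2.05 ± 0.24 (SE) with an adjusted p of 0.22 (limma), so that it missed the threshold. In 2 of 3 P4V libraries it was the most abundant of all 113 Ighv genes, whereas it ranked 26 and 25 in the Δ890 libraries.

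VH1-80, the distal gene nearest to the insertion, stood at 1.09% and 1.03% in Δ890 and at 4.18%, 3.50% and 2.33% in P4V. VH1-85, the outermost gene, stood at 0.641% and 0.609% in Δ890 and at 2.79%, 1.82% and 1.89% in P4V. Neither gene overlapped between the groups, and the log2 fold changes were 1.69 ± 0.29 (SE) and 1.83 ± 0.20 (SE), with adjusted p-values of 0.869 and 0.181 (limma). Without P4V replicate 3 both passed, with adjusted p-values of 0.00365 and 0.0347 (limma), as VH1-81 did without P4V replicate 2 (adjusted p 0.0104, limma).

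VH1-84 was little expressed, at 0.0228% and 0.0466% in Δ890 and 0.0978%, 0.109% and 0.123% in P4V. VH1-83 was the exception among the distal genes. Its share was 0.00785% and 0.0321% in Δ890 and 0.00715%, 0.0338% and 0.0274% in P4V, so that the groups overlapped, and its adjusted p was 0.957 (limma).

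**Figure D1:**
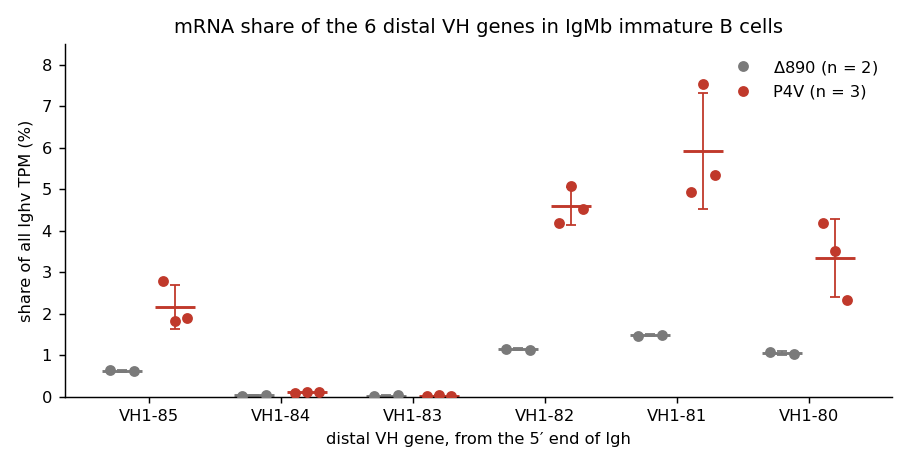
Share of the summed Ighv TPM (%) of each of the 6 distal VH genes, from VH1-85 on the 5′ side to VH1-80 next to the insertion. Each point is a library, lines are group means and bars the SD (Δ890 in grey, n = 2, and P4V in red, n = 3). VH1-85, VH1-84, VH1-82, VH1-81 and VH1-80 were higher in all 3 P4V libraries, and VH1-83 lay near 0 in both groups.

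Within the distal group, the part of each gene overlapped between the alleles. VH1-81 gave 33.4% and 34.4% of the distal TPM in the Δ890 libraries and 30.5%, 41.6% and 37.5% in the P4V libraries. VH1-82 gave 26.5% and 26.0% in Δ890 and 25.8%, 28.1% and 31.7% in P4V. VH1-80 and VH1-85 gave 16.4% to 25.8% and 10.1% to 17.2% of the distal TPM in the P4V libraries. Over the 6 genes, the smallest p for the part of the distal TPM was 0.3 (exact permutation test).

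The second comparison concerned the 6 VH genes on the other side of the insertion, towards the JH segments. These downstream genes, VH1-47, VH1-43, VH1-42, VH1-39, VH1-37 and VH1-36, together took 1.81% and 1.81% of the Ighv TPM in Δ890 and 1.80%, 2.13% and 2.46% in P4V. The groups overlapped, and the mean was 1.18-fold higher in P4V (p = 0.4, exact permutation test). The ratio was far from that of the distal genes, and the difference between the 2 ratios was not tested.

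VH1-36 was the downstream gene without overlap, at 0.194% and 0.175% in Δ890 and 0.323%, 0.228% and 0.275% in P4V. Its log2 fold change was 0.62 ± 0.14 (SE) with an adjusted p of 0.893 (limma). VH1-39 stood at 0.514% and 0.649% in Δ890 and 0.566%, 0.803% and 0.942% in P4V. VH1-42 stood at 0.575% and 0.473% in Δ890 and 0.562%, 0.649% and 0.663% in P4V. VH1-47, the gene directly beside the deletion point, had 0.478% and 0.469% in Δ890 and 0.315%, 0.370% and 0.523% in P4V, so that its mean was lower in P4V, with overlap. VH1-43 and VH1-37 stayed at or below 0.0426% in every library.

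The shares of all Ighv genes sum to 100%, and a larger distal share leaves less for the other genes. When the 6 distal genes were taken out of the denominator, a choice made after the data were seen, the downstream genes made up 1.89% in both Δ890 libraries and 2.15%, 2.6% and 2.87% in P4V. On this scale the groups did not overlap, with a ratio of 1.34 and p = 0.2 (exact permutation test). Whether the groups overlap for the downstream genes thus depends on the denominator.

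The 33 Ighv genes of the deleted interval with a row in the tables contributed 0.655% and 0.726% of the Ighv TPM in Δ890 and 0.580%, 0.855% and 0.589% in P4V (p = 1, exact permutation test). The alleles that the sort selects lack these genes in both groups, as the study describes it. Of the 33 genes, 6 were at 0 TPM in all 5 libraries, and no gene exceeded 0.143% in any library. The highest was VH1-67, with 0.0853% to 0.143%. In VDJ-seq of homozygous Δ890 pro-B cells, where neither allele holds the interval, the same genes took 0.404% to 0.501% of the VH joints. The source of these reads was not tested.

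**Figure D2:**
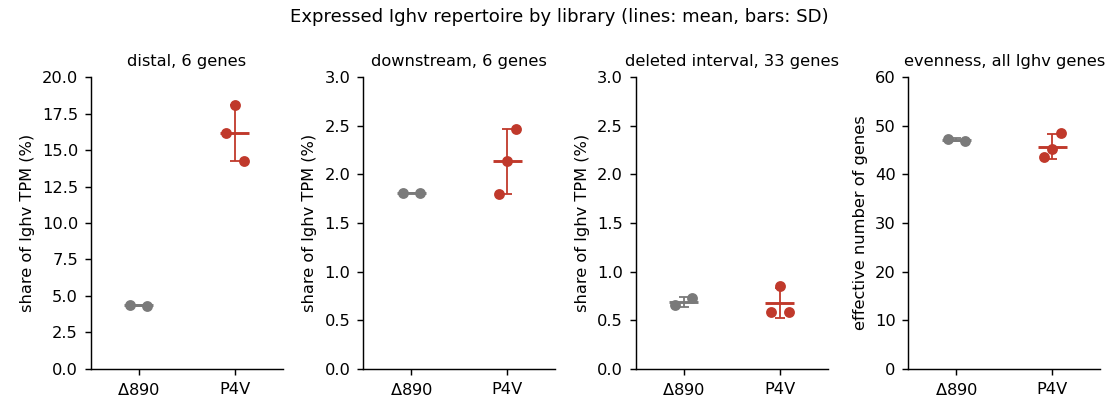
Summed shares of the distal, downstream and deleted-interval VH genes (% of the Ighv TPM) and the effective number of Ighv genes, by library. Points are libraries, lines means and bars the SD (Δ890, n = 2, and P4V, n = 3). The distal share separates the groups, while the ranges of the other 3 measures overlap between them.

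The remaining 68 genes, from VH1-34 towards the JH segments, held 93.1% in both Δ890 libraries and 81.4%, 78.9% and 82.7% in the P4V libraries (p = 0.1, exact permutation test). The share of all genes other than the distal ones fell by 0.19 on the log2 scale, from 95.6% to 83.8%. Their summed TPM was 7383 and 6924 in Δ890 and 6684, 7312 and 6035 in P4V, with a ratio of 0.933 and p = 0.4 (exact permutation test). In absolute TPM, the decrease outside the distal genes was thus within the spread of the libraries.

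Of the 106 Ighv genes above 0, the shares of 9 did not overlap and were higher in P4V (8.49%), and those of 28 did not overlap and were lower (26.4%). The distal genes supplied 5 of the 9, against 0 of the 28. Once the distal genes were removed from the denominator, 13 of 100 genes lay higher (13%) and 18 lower (18%) without overlap. The excess of lower genes on the first scale was therefore smaller on the second.

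VH1-26, a VH1 gene of the middle of the locus, was the only gene outside the distal group with a mean share of at least 0.5% that was higher in every P4V library. Its share was 3.11% and 3.0% in Δ890 and 4.37%, 4.94% and 3.78% in P4V, with a log2 fold change of 0.59 ± 0.19 (SE) and an adjusted p of 0.893 (limma).

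Among genes with such a share, the largest decreases without overlap were found for VH10-3, VH5-6, VH6-3, VH14-3 and VH14-2, with ratios of 0.688, 0.716, 0.723, 0.727 and 0.729. VH10-3 stood at 2.46% and 2.68% in Δ890 and 1.56%, 1.67% and 2.08% in P4V. VH6-3 stood at 4.53% and 5.67% in Δ890 and 2.87%, 3.75% and 4.43% in P4V. All 5 missed the threshold, with adjusted p-values of 0.893 (limma).

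The 10 most abundant Ighv genes over the 5 libraries were VH3-6, VH1-9, VH9-3, VH6-3, VH1-81, VH1-26, VH1-12, VH1-82, VH2-2 and VH1-15. VH3-6 led the Δ890 libraries with 6.52% and 6.76% and was at 5.52%, 4.89% and 4.64% in P4V. VH9-3 went from 4.94% and 4.77% to 3.6%, 4.41% and 4.04%, VH2-2 from 3.73% and 3.44% to 2.74%, 2.44% and 2.75%, and VH1-15 from 3.51% and 3.48% to 2.89%, 2.36% and 2.59%. VH1-9 overlapped between the groups, at 4.60% and 4.66% in Δ890 and 3.7%, 5.38% and 3.99% in P4V.

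VH1-12 owed its place in this list to a single library. It stood at 7.86% in P4V replicate 1, where it was the most abundant gene, and at 2.07% to 3.24% in the other 4 libraries. Likewise, VH1-4 reached 2.08% and VH1-14 reached 0.349% in P4V replicate 2, which was 2.13 and 5.85 times the next highest library. These 3 genes were chosen after their values were seen, as those with at least 2 times the share in 1 library than in every other, at a mean share of at least 0.1%.

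**Figure D3:**
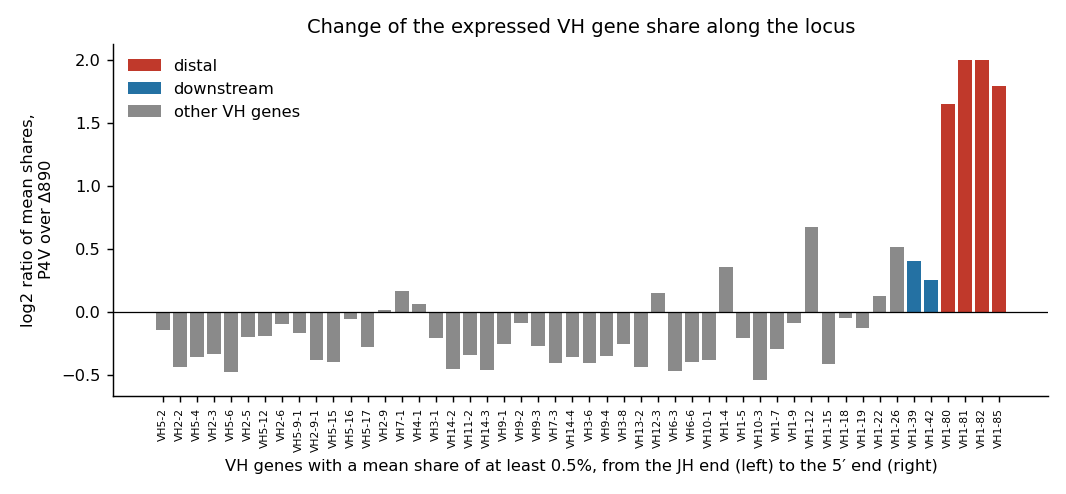
Log2 ratio of the mean shares (P4V over Δ890) of the 50 Ighv genes with a mean share of at least 0.5%, ordered from the JH end to the 5′ end of the locus. Bars are single genes, with distal genes in red and downstream genes in blue. The 4 distal genes lie between 1.66 and 2.0, and the high bar of VH1-12 rests on P4V replicate 1.

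By family, VH1 genes took 33.1% and 33% of the Ighv TPM in Δ890 and 47.7%, 49.6% and 42.0% in P4V. The VH1 family has 56 of the 113 genes, and 6 of them are the distal ones. Without these, the VH1 family still made up 30.0% of the rest in Δ890 and 32.4% to 38.4% in P4V. These values include VH1-12, which was high in P4V replicate 1 alone, and VH1-4 and VH1-14, which were high in P4V replicate 2 alone. The VH5 family, the most JH-proximal large family together with VH2, stood at 11.5% and 11.4% in Δ890 and 9.33%, 8.71% and 10.1% in P4V, and VH2 at 10.6% and 9.36% in Δ890 and 8.64%, 7.45% and 8.31% in P4V. The VH3 family stood at 9.03% and 8.99% in Δ890 and 7.39%, 6.71% and 6.95% in P4V. Shares within the repertoire without distal genes overlapped for VH2, at 9.79% to 11.1% against 9.10% to 10.3%, and not for VH5, at 12.0% in both Δ890 libraries against 10.6% to 11.8%, nor for VH3, at 9.39% to 9.45% against 8.11% to 8.82%. These family values are given as a description without a test.

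The evenness of the repertoire overlapped between the groups. The effective number of genes, the exponential of the Shannon entropy of the shares, was 47.4 and 46.9 in Δ890 and 43.5, 45.2 and 48.5 in P4V (p = 0.6, exact permutation test). The 10 most abundant genes of each library held 40.4% and 40.7% in Δ890 and 44.7%, 45.6% and 39.4% in P4V. Ighv genes above 0 TPM numbered 101 in both Δ890 libraries and 95 to 100 in P4V.

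The total of heavy-chain mRNA overlapped as well. Ighv TPM summed to 7722 and 7238 in Δ890 and to 7974, 8925 and 7036 in P4V (p = 0.6, exact permutation test). Ighm stood at 16910 and 15955 TPM in Δ890 and 19530, 17759 and 15339 TPM in P4V. The Ighv sum was 0.457 and 0.454 of the Ighm TPM in Δ890 and 0.408, 0.503 and 0.459 in P4V.

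VDJ-seq of pro-B cells from mice homozygous for the same alleles measures the joints in DNA and gives a value for genes without an mRNA row. It comes from other runs and from another cell stage, sorted as IgM-, whereas the mRNA cells were sorted for surface IgM. The zygosity of the mice also differs for Δ890 and may differ for P4V, so that values are set side by side without a test. The labels assign 3 libraries to each genotype. As a percentage of all VH joints, the 6 distal genes held 1.58%, 1.95% and 1.49% in Δ890 and 7.28%, 7.16% and 7.75% in P4V pro-B cells, a ratio of 4.42, beside the ratio of 3.7 in mRNA. The downstream genes held 1.20%, 1.39% and 1.10% in Δ890 and 2.13%, 1.90% and 2.15% in P4V, a ratio of 1.68, beside 1.18 in mRNA. The 33 genes of the deleted interval held 0.404% to 0.540% in these 6 libraries. VH8-7 was at 0 in the 3 Δ890 libraries and at 0.641%, 0.619% and 0.50% in the P4V libraries.

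Among the 6 distal genes, the ratio of the group means differed most between the assays for VH1-83. In DNA, its mean share of the VH joints was 0.0782% ± 0.0325 (SD, n = 3) in Δ890 and 0.481% ± 0.107 (SD, n = 3) in P4V, a ratio of 6.15, whereas in mRNA it stayed near 0.02% in both groups. The part of the sort for surface IgM in this difference was not tested. VH1-84 had the largest DNA ratio of the 6 genes, 6.92 with a share of 0.252% in P4V, beside 3.17 in mRNA. For VH1-81, VH1-85 and VH1-80 the ratios in DNA were 4.02, 3.43 and 3.51, and those in mRNA were 4.0, 3.46 and 3.15. For VH1-82 they were 5.77 and 4.01. Among downstream genes, VH1-42, VH1-39 and VH1-36 had DNA ratios of 2.79, 2.34 and 2.15 against mRNA ratios of 1.19, 1.32 and 1.5, and VH1-47 had 1.03 against 0.851. Across the 60 genes with at least 0.1% in both assays in Δ890, the Spearman correlation of the log2 ratios was 0.39, and 0.25 over the 56 genes that were not distal. Genes are not independent replicates, and the shares of each assay depend on each other.

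**Figure D4:**
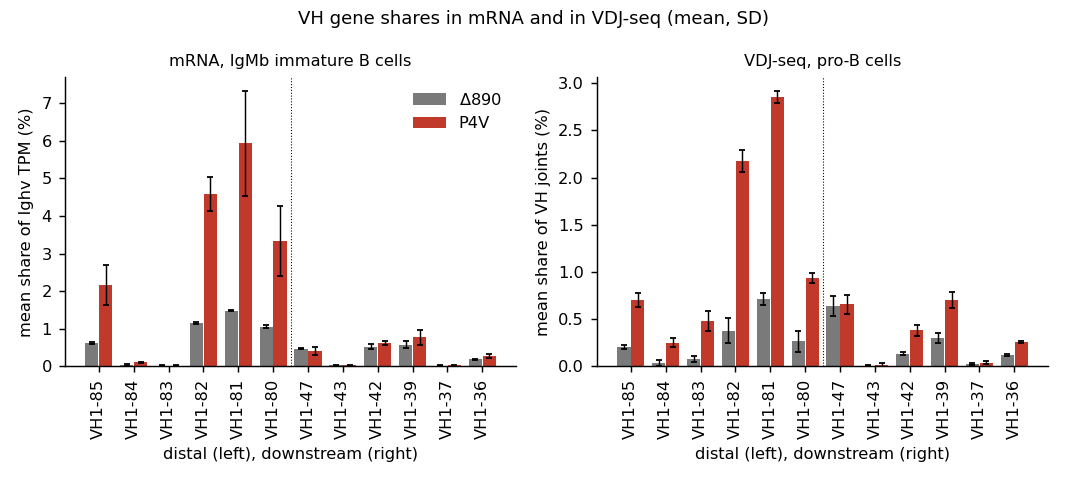
Mean share of the distal and downstream VH genes in mRNA of IgMb immature B cells (left, % of the Ighv TPM, n = 2 for Δ890 and 3 for P4V) and in VDJ-seq of pro-B cells (right, % of all VH joints, n = 3 each). Bars are means, lines the SD, and the dotted line separates distal from downstream genes. VH1-83 is seen in DNA at 0.481% in P4V and lies near 0 in mRNA.

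The third comparison was of the transcriptome outside the immunoglobulin genes, which asks whether cells with the P4V and the Δ890 allele differ in anything beyond the repertoire. Of the 11454 genes outside the immunoglobulin genes, 0 (0%) passed the threshold (limma, smallest adjusted p 0.106), and the unadjusted p was below 0.05 for 483 (4.22%), with 214 higher (1.87%) and 269 lower (2.35%). The median log2 fold change was -0.03, and 90% of the genes lay between -0.23 and 0.24. Where the mean reached 5 TPM, 7 of 9197 genes reached 1 in either direction. Without overlap of the libraries, 792 genes were higher in P4V (6.91%) and 1857 lower (16.2%). The balance of the directions depended on the normalization. Over all genes tested, the unadjusted p was below 0.05 for 225 higher and 297 lower genes, and for 300 and 214 after quantile normalization (limma). The counts without overlap rest on TPM as deposited.

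The 5 libraries were close to each other but not equally so. P4V replicate 3 stood apart, with a root mean square difference of 0.276 to 0.300 in log2(TPM + 1) from every other library, against 0.206 to 0.238 among the other 4. It also had the highest sum of granulocyte markers, 7287 TPM against 2385 to 3603 TPM, with S100a9 at 3152 TPM against 661 to 1402 TPM, and the highest sum of myeloid markers, 626 TPM against 339 to 454 TPM. Of the 7 granulocyte markers 6 had a row, all above 0, and Ly6g had none. P4V replicate 2 had the highest sum of plasma cell markers, 971 TPM against 362 to 604 TPM, with Igha at 294 TPM against 24.1 to 59.6 TPM and Ighg3 at 101 TPM against 5.54 to 23.8 TPM. The plasma cell markers Igj, Prdm1, Tnfrsf17 and Sdc1 were highest in P4V replicate 1, with Igj at 185 TPM there, 181 TPM in P4V replicate 2 and 32.6 to 65.6 TPM in the other libraries. P4V replicate 2 also had the highest sum of pro-B and pre-B cell markers, 207 TPM against 91.5 to 118 TPM. Igll1 stood at 73.8 TPM there, against 18 to 19.8 TPM elsewhere. Il2ra, Il7r, Rag1 and Rag2 of the same list were instead highest in Δ890 replicate 2. The distal share without P4V replicate 2 was 15.2% on average in P4V and without replicate 3 it was 17.1%. Of the markers of the sorted cell type, all 10 B cell identity genes and the immature markers Cd24a (2393 to 2591 TPM), Vpreb3 (4064 to 4857 TPM) and Cd93 (87.6 to 116 TPM) were present in every library. Of the 6 immature markers, Cd93 alone was free of overlap, at 103 and 116 TPM in Δ890 and 87.6, 98.8 and 99 TPM in P4V (adjusted p 0.893, limma). The 8 markers of mature recirculating B cells summed to 2400 and 2037 TPM in Δ890 and to 2250, 1872 and 1750 TPM in P4V. Of these 8, 0 passed, and 0 were higher and 1 (S1pr1) lower without overlap, against 6.94% and 16.2% of all genes tested. The NK cell markers summed to 6.27 to 10.9 TPM, and the erythroid markers to 421 to 472 TPM, with Hbb-b1 listed at 0. The T cell markers summed to 57.2 to 66.0 TPM, of which Lck gave 45.4 to 50.8 TPM.

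Xist and the Y-linked genes Ddx3y, Eif2s3y, Kdm5d and Uty were present in all 5 libraries. Xist stood at 34.2 and 25.6 TPM in Δ890 and at 18.6, 18.3 and 3.0 TPM in P4V, and Eif2s3y at 11.2 and 19.6 TPM in Δ890 and at 17.6, 25.8 and 38.5 TPM in P4V. The part of these differences in the results outside the immunoglobulin genes was not tested.

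The gene with the smallest p outside the immunoglobulin genes was a copy of Snord58b, a small nucleolar RNA, which polyA selection does not aim to capture. It was lower in P4V, at 16 and 18.5 TPM in Δ890 and 6.03, 7.24 and 5.83 TPM in P4V (log2 fold change -1.31 ± 0.12 SE, adjusted p 0.106, limma). Several other small RNAs, Snord91a and Mir8091 among the lower and Snord2 among the higher genes, were also in the list of named genes.

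Fos and Fosb, which encode transcription factor subunits that are induced rapidly by many stimuli, were among the named genes with higher values. Fos stood at 78.5 and 65.4 TPM in Δ890 and at 110, 148 and 126 TPM in P4V, with a log2 fold change of 0.82 ± 0.14 (SE). Fosb stood at 7.89 and 6.99 TPM in Δ890 and at 14.5, 21.9 and 28.7 TPM in P4V, with a log2 fold change of 1.38 ± 0.25 (SE). Jun, from the list of early responses to the B cell receptor, stood at 66.2 and 73.6 TPM in Δ890 and 84.6, 113 and 121 TPM in P4V, with a log2 fold change of 0.58 ± 0.15 (SE). Their adjusted p-values were 0.832, 0.893 and 0.893 (limma), so that none passed. Of the 10 genes of that list, 0 passed, 3 were higher without overlap (Fos, Jun and Junb) and 0 lower, against 6.94% and 16.2% of all genes tested, with a median log2 fold change of 0.26 against -0.03 over all genes. Egr1, Egr2, Egr3, Nr4a1, Myc, Cd69 and Dusp2, the rest of the list, overlapped between the groups. P4V replicate 3, the library with the most granulocyte marker RNA, was the highest for Fosb and for all genes of the list but Fos and Myc. Fos was highest in P4V replicate 2 and Myc in P4V replicate 1. The part of other cells in these values was not tested.

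**Figure D5:**
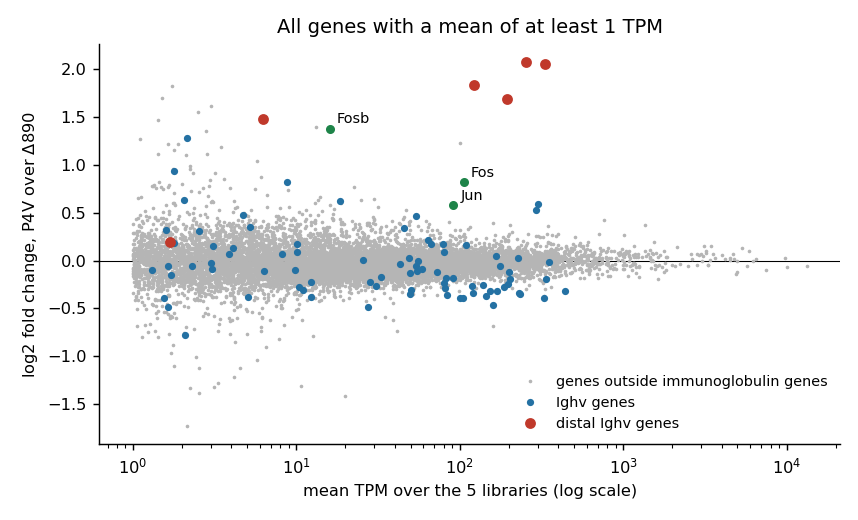
Log2 fold change (P4V over Δ890) on the log2(TPM + 1) scale against the mean TPM (log scale) of genes whose mean reached 1 TPM. Grey points are the 11454 genes outside the immunoglobulin genes, blue points Ighv genes, red points the 6 distal Ighv genes and green points Fos, Fosb and Jun. Of the distal genes, 4 lie above 1.6 and VH1-83 lies near 0.

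Of the 12 genes of the cell cycle list, 0 passed, 5 were higher without overlap and 0 lower, against 6.94% and 16.2% of all genes tested, with a median log2 fold change of 0.30. Of the 10 B cell identity genes, 0 passed, 0 were higher and 4 lower without overlap (Pax5, Ebf1, Blk and Ptprc), with a median of -0.07. Of the plasma cell genes, 10 were tested, 0 passed, and 3 of the list were higher without overlap and 0 lower. Mcm2, a subunit of the replicative helicase, stood at 78.9 and 83.2 TPM in Δ890 and at 91.7, 114 and 101 TPM in P4V, and Pcna, the sliding clamp of the replication fork, at 166 and 164 TPM in Δ890 and at 178, 218 and 194 TPM in P4V. Ube2c, which directs mitotic proteins to degradation, was among the named higher genes, at 133 and 136 TPM in Δ890 and 159, 191 and 183 TPM in P4V. P4V replicate 2, the library with the most Igll1 RNA, was the highest for Mcm2, Pcna and Ube2c, and the part of other cell stages in these values was not tested. The adjusted p was 0.893 for all 3 (limma).

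The other named higher genes were Gpx3, a secreted glutathione peroxidase, Slc7a5, a subunit of the large neutral amino acid transporter, Cdkn3, H1fx, Alpl and Spata24. Gpx3 stood at 3.84 and 3.51 TPM in Δ890 and 7.60, 6.72 and 6.29 TPM in P4V, and Slc7a5 at 24.4 and 24.8 TPM in Δ890 and 31.4, 34.1 and 34.7 TPM in P4V. The other named lower genes were Abhd17b, Gapt, Samd9l, Zfp825, Kdm7a, Serinc5 and Smim19, with log2 fold changes between -0.43 and -0.25. Gapt, which binds the adaptor Grb2 in B cells, stood at 49.6 and 48.9 TPM in Δ890 and 41.5, 41.5 and 40.5 TPM in P4V. None of them passed, with adjusted p-values of 0.784 to 0.893 (limma).

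Lists of genes on which the formation and signalling of the receptor depend held no gene past the threshold. Of the 12 genes of V(D)J recombination and end joining, 0 passed and 0 were free of overlap, with a median log2 fold change of -0.11. Rag1, a subunit of the recombinase, stood at 11.5 and 17 TPM in Δ890 and 9.99, 12.8 and 11.2 TPM in P4V. Of the 13 genes of B cell receptor signalling, 0 passed and 0 were free of overlap, with a median of -0.04. Of the 10 genes of receptor editing and light chain control, 0 passed, and 1 was higher and 2 lower without overlap, against 6.94% and 16.2% of all genes tested. Bach2 stood at 148 and 147 TPM in Δ890 and 129, 136 and 136 TPM in P4V (adjusted p 0.893, limma). The survival list had a median of 0.00 over 10 genes, and Mcl1 was its only gene without overlap, at 777 and 744 TPM in Δ890 and 710, 697 and 604 TPM in P4V. The interferon list had a median of -0.08 over 9 genes with 0 higher and 2 lower without overlap. The stress list had a median of 0.03 over 6 tested genes, with 1 higher and 0 lower without overlap. The higher gene was Hspa1b, an inducible heat shock protein, at 1.19 and 0.753 TPM in Δ890 and 1.33, 2.86 and 1.83 TPM in P4V (adjusted p 0.893, limma). Its part in the values of Fos, Fosb and Jun was not tested.

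Genes that flank Igh on chromosome 12 were listed as neighbours of the altered locus. Of the 23 listed, 18 were expressed enough to be tested, 0 passed, 4 were higher and 1 lower without overlap, against 6.94% and 16.2% of all genes tested, and the median was 0.03. Crip1, the most abundant of them, stood at 1695 and 1684 TPM in Δ890 and 1726, 1660 and 1525 TPM in P4V. Adam6a and Adam6b, which lie between the VH genes and the D segments, stayed at or below 0.350 TPM in every library.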

How the data were processed

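The authors sequenced polyA RNA of sorted cells in single 50-base reads, removed ribosomal RNA reads, aligned with TopHat, removed duplicates, counted unique reads with featureCounts (version 1.5.0 per the labels) and deposited TPM values. Per the labels the builds are mm9 and mm10. TPM values keep no depth, and depth and counting error are therefore unknown. The authors deposited VDJ-seq values as a percentage of VDJH and DJH joints, and these were rescaled to the sum over VH genes. In 2 libraries, 4 and 1 rows held no number and were left out.

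TPM values were tested with limma 3.58.1 in R 4.3.3 (lmFit and eBayes with trend) on log2(TPM + 1), for genes whose mean reached 1 TPM, with Benjamini-Hochberg adjustment and a threshold of 0.05. This scale understates changes of low genes. The script was tested on simulated data. Single values per library were compared by exact permutation tests of the difference of means. VH genes were placed on mm9, the deleted interval was taken as the genes between VH1-47 and VH1-80, and exons were compared in windows of 50 bases. Named were the distal and downstream genes, the 10 VH genes with the highest mean share, up to 5 with the largest rise and fall without overlap at a mean share of at least 0.5%, and outside the immunoglobulin genes those past the threshold, up to 10 higher and 10 lower with the smallest p without overlap whose mean reached 5 TPM, and members of the lists. The VH groups and lists were chosen with earlier results of these data known, and no list was tested as a set.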

Additional observations from a re-analysis of the deposited data

How the results depend on the processing

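The distal share stayed higher in P4V in all alternatives run, by 10.8 to 12.8 percentage points when each library was left out in turn. The downstream difference without 1 library was 0.157 to 0.487 points and that of the effective number -2.81 to -0.322. The deleted-interval difference, -0.0158 points, turned to 0.00031 points as a percentage of all TPM and ran from -0.106 to 0.0313 without 1 library. The count of genes past the threshold, 1 with the settings of the report, was 0 with a pseudocount of 0.1 or 5, without trend, with robust fitting, with quantile normalization and with genes outside the immunoglobulin genes scaled to 1 sum. Where 1 Δ890 library is left, it is assumed to vary like the P4V libraries. The count was 2 without a filter (Mir302d and Mir5121), and 0 to 4 without 1 library: 2 without P4V replicate 2 (VH1-81 and VH1-82), 4 without P4V replicate 3 (VH1-80, VH1-82, VH1-85 and Mir6953), 1 without Δ890 replicate 2 (Ighd4-1, which is at 0 TPM in the 1 Δ890 library then left and at 30.8 TPM in the other) and 0 without Δ890 replicate 1 or P4V replicate 1. VH1-82 passed with a filter of 5 TPM and with Ighv rows scaled to 1 sum. Without P4V replicate 1, VH1-12 was at -0.00413 on the log2 scale, and without P4V replicate 3 it was at 1.04. The log2 fold changes without 1 library ran from -0.33 to 0.72 for VH1-83, where -0.33 and -0.11 were below 0, from -0.19 to 0.37 for VH1-37 and from -0.26 to 0.12 for VH1-9, which was above 0 at 0.02, 0.09 and 0.12. No paired analysis was possible because no shared number in the labels ties a P4V mouse to a Δ890 mouse. The VH8-7 alternatives were not run, as no row carries that name. With 2 and 3 libraries no permutation test could pass 0.05. The causes of these changes were not tested.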

Other observations

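The κ light-chain genes are joined on another chromosome after the heavy chain. Among the 50 Igkv genes with a mean share of at least 0.5% of the Igkv TPM, 2 were higher and 10 lower in P4V without overlap, beside 5 higher and 19 lower of the 50 Ighv genes with such a share and 6.94% and 16.2% of all genes tested (by TPM), and the median absolute log2 ratio of the group means was 0.15, against 0.35 for those Ighv genes, whose shares also depend on the distal share. The difference between these medians was not tested. The most abundant gene, Igkv14-126, stood at 10.7% and 7.36% in Δ890 and 8.73%, 5.82% and 7.11% in P4V. Of these 50 Igkv genes, 2 had a log2 ratio of 1 or more, and each rested on a single library: Igkv2-109 at 4.31% in P4V replicate 1, against 0.886% to 1.16% elsewhere, and Igkv1-122 at 4.28% in P4V replicate 2, against 0.499% to 0.607% elsewhere. These are the libraries in which VH1-12 (replicate 1) and VH1-4 and VH1-14 (replicate 2) stood out. The effective number of Igkv genes was 51.3 and 53.7 in Δ890 and 50.3, 53.9 and 56.6 in P4V (p = 0.8, exact permutation test).

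Of the λ genes, Iglv1 stood at 523 and 471 TPM in Δ890 and 418, 507 and 271 TPM in P4V, and the sum of the 3 Iglv rows was 925 and 815 TPM in Δ890 and 707, 857 and 469 TPM in P4V (p = 0.3, exact permutation test). Among the JH and D rows, Ighd1-1 (DFL16.1), a D segment of the 5′ part of the D cluster, stood at 23 and 18.4 TPM in Δ890 and 32.5, 45 and 41.8 TPM in P4V, with a log2 fold change of 0.90 ± 0.16 (SE) and an adjusted p of 0.869 (limma). Ighd2-4 stood at 20.7 and 34.8 TPM in Δ890 and 9.76, 4.68 and 18.9 TPM in P4V, with a log2 fold change of -1.39 ± 0.49 (SE) and an adjusted p of 0.893 (limma). Both were chosen after their values were seen.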
